A study of Rattus norvegicus with 64 samples.

Results

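Adipocyte genes were followed in the reconstructed urinary bladder wall of rats: Adipoq, Retn, Lep, Cfd, Cidec, Plin1, Lpl, Lipe, Fabp4 and Cebpa. They were taken by symbol, through the transcript accession that the array files give for each probe. Of these 10 genes 9 had a probe, out of 15715 named genes on the array, and no probe was matched to Plin1. Lipe had 2 probes and each of the others had 1, so that 10 probes were read. Total RNA came from 64 male Wistar rats that all underwent hemicystectomy and were augmented with bladder acellular matrix (BAM), the bladder wall left after its cells are removed. In the seeded groups, named BAM with ASCs here, the graft carried adipose tissue-derived stromal cells from retroperitoneal fat of 10-week-old male Wistar rats, expanded until the third passage, and in the other groups the graft carried no cells. Tissue was taken at 7, 30, 90 and 180 days, 8 rats for each graft type and day, and the graft was separated from the native bladder before RNA isolation. The age of the operated rats is not given in the sources used here. Because donors and hosts were both male Wistar rats, no probe tells implanted cells from host cells.

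Adipocytes store triglyceride in a lipid droplet and release hormones into the blood. Fatty acids are cut from circulating lipoproteins by lipoprotein lipase (Lpl), carried inside the cell by fatty acid binding protein 4 (Fabp4), packed into a large droplet with the help of Cidec and Plin1, and set free again by hormone-sensitive lipase (Lipe). The secreted products include adiponectin (Adipoq), leptin (Lep), resistin (Retn, a fat hormone in rodents) and adipsin (Cfd, complement factor D), and Cebpa encodes a transcription factor that drives adipocyte differentiation. Several of these genes are also used outside fat: Lpl, Fabp4 and Cfd by macrophages, and Fabp4 by capillary endothelium and by urothelium. ASCs are stromal precursors that can form adipocytes under adipogenic conditions, while undifferentiated ASCs are not adipocytes.

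The array files hold no probe sequences. As the 3 genes whose signals moved together from rat to rat were Adipoq, Retn and Cidec, the 250 bases before their annotated starts are shown here, 5′ to 3′ on the gene's strand, from the RefSeq promoter table of assembly GRCr8, with matches to 4 short motifs in capitals. The table held 7 of the 10 genes. Adipoq lies on chr11:91240170-91240419 (minus strand), Retn on chr12:6508524-6508773 (plus strand) and Cidec on chr4:148137116-148137365 (minus strand).
Adipoq: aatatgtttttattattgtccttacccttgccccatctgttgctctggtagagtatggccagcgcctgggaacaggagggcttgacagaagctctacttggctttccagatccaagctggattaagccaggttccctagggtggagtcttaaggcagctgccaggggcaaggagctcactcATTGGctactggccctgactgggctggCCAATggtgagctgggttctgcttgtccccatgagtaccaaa
Retn: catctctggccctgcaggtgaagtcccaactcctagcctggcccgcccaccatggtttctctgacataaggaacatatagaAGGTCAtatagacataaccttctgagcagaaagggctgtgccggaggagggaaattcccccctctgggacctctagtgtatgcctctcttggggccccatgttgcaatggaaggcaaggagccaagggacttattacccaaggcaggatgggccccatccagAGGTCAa
Cidec: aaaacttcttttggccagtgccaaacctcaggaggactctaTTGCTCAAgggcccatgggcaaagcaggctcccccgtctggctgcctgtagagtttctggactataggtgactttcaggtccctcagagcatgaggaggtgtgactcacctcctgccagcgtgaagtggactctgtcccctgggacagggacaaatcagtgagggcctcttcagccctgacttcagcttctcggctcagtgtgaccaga
The motifs were searched on both strands and were the TATA box (TATAAA), the CCAAT box (CCAAT), the AGGTCA core read by nuclear receptors, and TTGCNNAA, which resembles the site of C/EBP factors such as the product of Cebpa. The Adipoq window held CCAAT 2 times, at 69 to 65 bases before the start on the opposite strand and at 42 to 38 bases before it on the gene's strand. The Retn window held AGGTCA 2 times, at 169 to 164 and at 7 to 2 bases before the start, and the Cidec window held TTGCNNAA 1 time, at 209 to 202 bases. No base lay in 2 matches, and no motif was found in all 3 windows. Over the same 250 bases of all 33469 promoters of the table, 34.0% held CCAAT, 14.1% AGGTCA, 12.9% TATAAA and 9.22% TTGCNNAA.

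Signals are given as log2 of the processed spot intensity minus the 75th percentile of the array, so that 0 is that percentile and 1 unit is a 2-fold change. In these files, 73.3 to 95.6% of the gene spots per array passed the well-above-background flag at days 7 and 30, against 35.5 to 64.6% at days 90 and 180, and the median local background was 321 to 365.5 in BAM at day 90 against 99 to 120 in BAM with ASCs. Each slide held 1 group, so slide and group cannot be told apart, and the slides of days 7 and 30 were scanned in another session than those of days 90 and 180, so no level was compared across that step. The tests that cross it compare only graft differences, each taken within a session. The median difference between graft types over all gene probes was -0.16, 0.11, -0.27 and 0.06 at days 7, 30, 90 and 180. BAM with ASCs replicate 3 at day 90 stood apart: its summed signal over 14 macrophage genes was 25.5 times the 75th percentile, against 109 to 175 on the other arrays of the group, and its summed signal over 8 urothelial genes was 406, against 159 to 233. BAM replicate 8 at day 90 had 35.5% of gene spots above background against 53.0 to 58.5% in the rest of its group, and BAM replicates 7 and 8 at day 180 had 47.2% and 45.0% against 57.1 to 62.4%. Arrays were compared with limma over all 64 arrays, and a gene counted as called at a Benjamini-Hochberg adjusted p below 0.01 over 30367 probes and a fold change above 1.5. Fabp4, Lpl and Cfd were well above background on all 64 arrays, and 8 of the 9 genes on at least 32. Lep was above background on 9 arrays only.

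**Figure D1:**
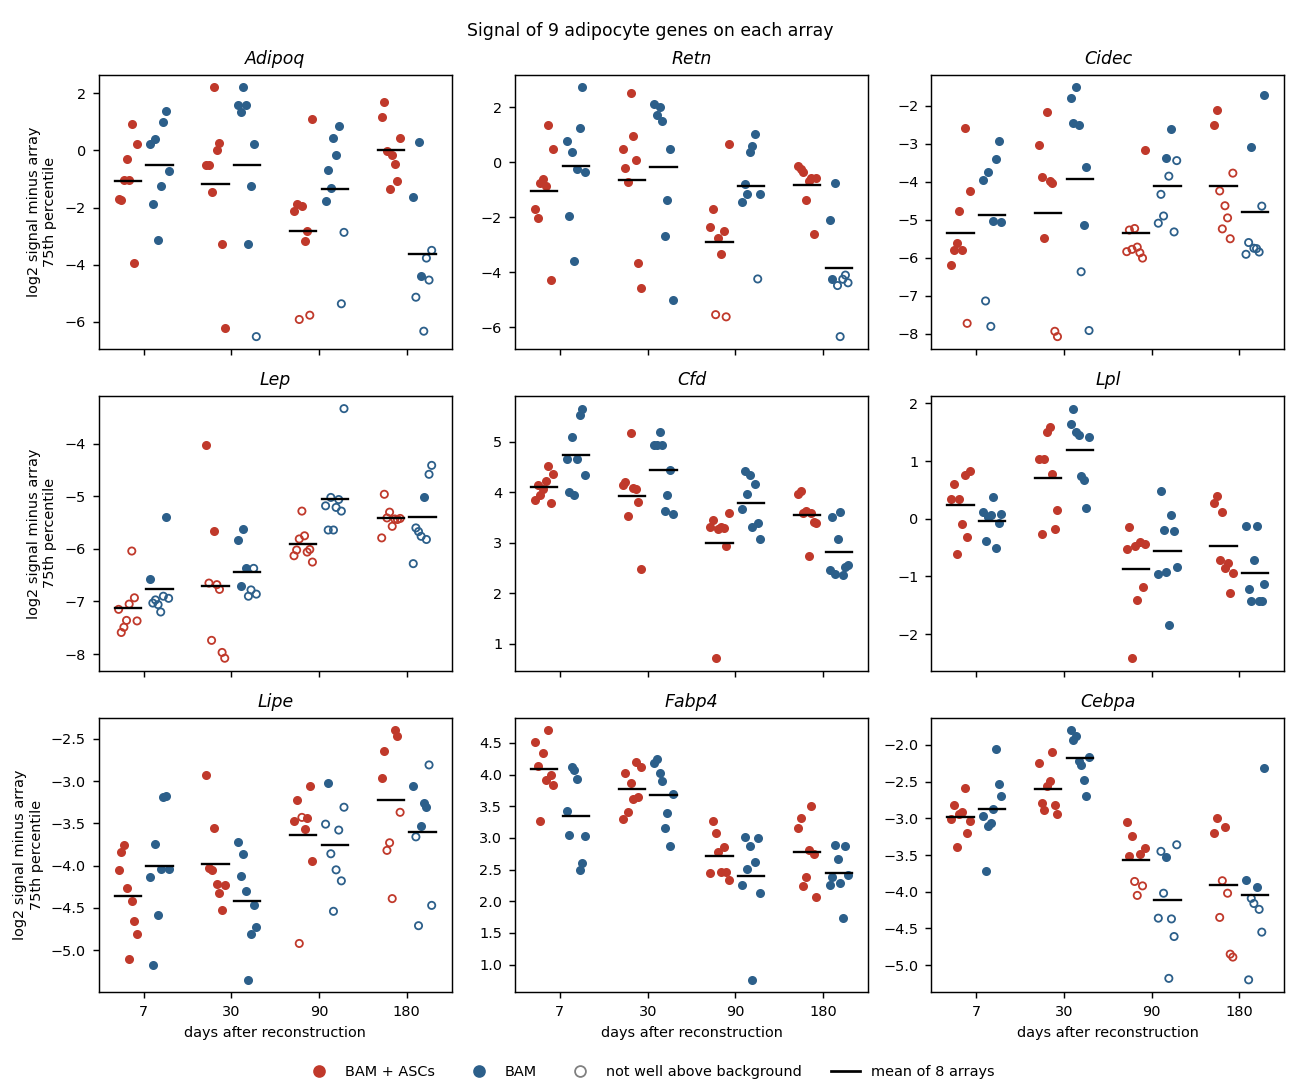
Log2 signal minus the array's 75th percentile (y axis) of 9 adipocyte genes on each of 64 arrays, by day after reconstruction (x axis). Red points are BAM seeded with ASCs and blue points BAM only, open points are arrays where the probe was not well above background, and bars are means of 8 arrays. At day 180 Adipoq reached -1.34 to 1.70 with ASCs and -6.33 to 0.28 with BAM only.

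At day 180 the 2 adipocyte hormones Adipoq and Retn had the largest differences between graft types of the 9 genes. On the 8 arrays of BAM seeded with ASCs, in the order of the replicate numbers, Adipoq gave 1.17, 1.70, -0.03, -1.34, -0.15, -0.48, -1.08 and 0.43. On the 8 arrays of BAM only it gave -1.63, -5.14, 0.28, -4.40, -6.33, -3.77, -4.54 and -3.50. All arrays with ASCs lay above 7 of the 8 arrays of BAM only, and BAM replicate 3 lay among them. The Adipoq spots exceeded background clearly on all 8 seeded arrays but on 3 of 8 with BAM only, so that the low BAM values are in part background. The group means were 0.03 ± 1.05 (SD, n = 8) and -3.63 ± 2.08, and the difference of 3.66 ± 1.03 (SE), 12.6-fold, had an adjusted p of 0.0192 by limma, which missed 0.01.

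Retn followed the same arrays. With ASCs its values were -0.13, -0.26, -0.37, -1.39, -0.70, -0.58, -2.60 and -0.59, and with BAM only -2.10, -4.27, -0.77, -4.49, -6.35, -4.26, -4.11 and -4.39, again by replicate number. BAM replicate 3 was again the highest array of its group and BAM replicate 5 the lowest, and 6 of 8 arrays with ASCs exceeded all arrays of BAM only. The means were -0.83 ± 0.812 and -3.84 ± 1.69 (SD, n = 8), a difference of 3.01 ± 0.946 (SE) or 8.08-fold (limma adjusted p = 0.0463). Retn too exceeded background on all 8 seeded arrays but on 3 of 8 with BAM only, so that this fold rests in part on background values. Without BAM replicate 3 the Adipoq difference was 4.22 with an adjusted p of 0.00573, and the Retn difference 3.45 with 0.0198. Without BAM replicate 7 or 8, the arrays with fewest spots above background, the Adipoq differences were 3.53 (0.0375) and 3.68 (0.0284), and those of Retn 2.98 (0.0707) and 2.94 (0.0761). When only the 16 arrays of day 180 were fitted, both genes passed (0.00868 and 0.00730), and after normexp background correction the differences were 2.46 and 1.85. Over the 9 alternative fits (limma or an ordinary linear model), the adjusted p reached 0.0468 for Adipoq and 0.18 for Retn.

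For the droplet gene Cidec and the hormone Lep the groups overlapped and no difference passed. Cidec was -5.50 to -2.10 with a median of -4.43 in BAM with ASCs, and -5.91 to -1.70 with a median of -5.68 in BAM only, and only 2 arrays of each group were well above background. The 2 arrays with ASCs above background were replicates 1 and 2, at -2.50 and -2.10, which were also the highest for Adipoq. In BAM only they were replicate 3, at -3.08, and replicate 8, at -1.70, where Adipoq was -3.50. The Cidec difference was 0.67 ± 0.805 (SE, limma adjusted p = 0.885). For Lep the probe was distinct from background on 0 seeded arrays and 1 with BAM only, and no fold is given for it.

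None of the 5 remaining genes passed at day 180. Cfd ranged from 2.73 to 4.02 (median 3.59) with ASCs and from 2.36 to 3.61 (median 2.54) with BAM only, and 3 of 8 arrays with ASCs lay above all arrays of BAM only (difference 0.73 ± 0.305, limma adjusted p = 0.205). Lpl was -1.29 to 0.40 (median -0.74) with ASCs and -1.43 to -0.12 (median -1.17) with BAM only, a difference of 0.48 ± 0.305 with an adjusted p of 0.564. Fabp4 was 2.07 to 3.51 (median 2.78) against 1.74 to 2.89 (median 2.40), and Cebpa -4.89 to -2.99 (median -3.93) against -5.20 to -2.31 (median -4.13), with differences of 0.34 ± 0.251 and 0.13 ± 0.263. The groups overlapped for each of these genes. Both Lipe probes were above background on 3 or 4 arrays of each group, and their differences were 0.38 ± 0.291 for the brighter probe and 0.72 ± 0.249 for the other, with adjusted p of 0.691 and 0.0859.

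In all, 0 of the 9 genes were called at day 180 by limma, and 0 by an ordinary linear model without moderated spread, where 1.02% of all named genes were called higher and 0.0318% lower with ASCs. At an unadjusted p below 0.05 there were 3, Adipoq, Cfd and Retn, all higher, where 7.34% of all named genes were higher and 5.24% lower at that level. The difference was above 0 for 8 of the 9 genes, with a median of 0.48 against 0.03 over all named genes, and 0 of 9 separated the 8 arrays from the other 8 without overlap, as 0.942% of all named genes did. In whole tissue, a smaller number of adipocytes and less RNA per adipocyte cannot be told apart.

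**Figure D2:**
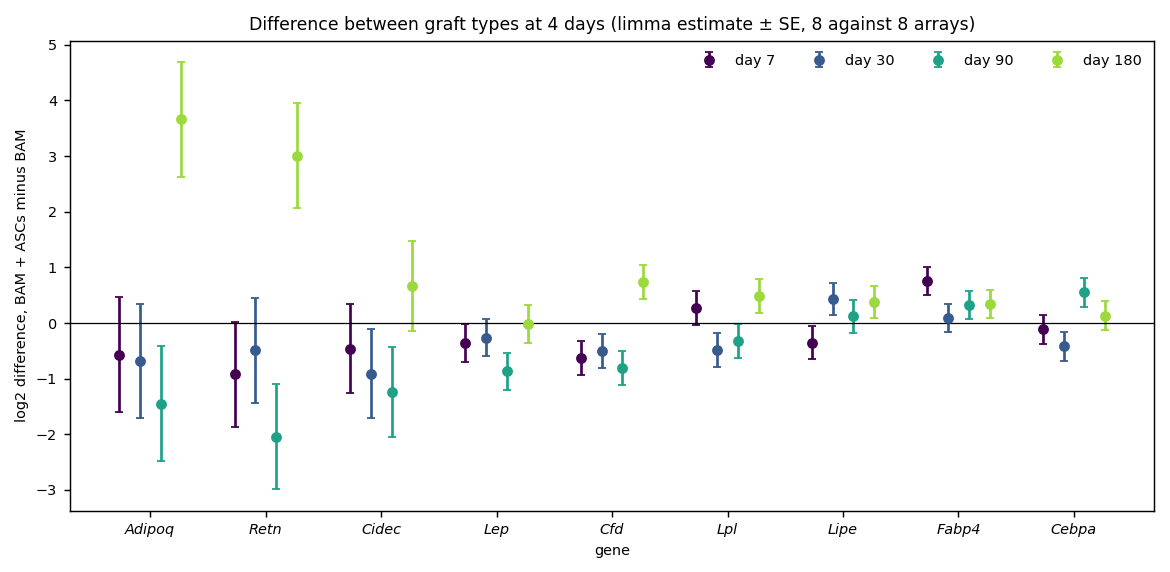
Log2 difference of BAM with ASCs over BAM only (y axis, limma estimate with its SE, 8 against 8 arrays) for 9 genes at days 7, 30, 90 and 180. Adipoq and Retn lie at 3.66 and 3.01 at day 180, and at -1.45 and -2.04 at day 90.

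Before day 180 Adipoq and Retn had means below those of BAM only. At day 7, Adipoq ranged from -3.95 to 0.91 (median -1.03) with ASCs and from -3.14 to 1.37 (median -0.26) with BAM only, and the difference was -0.57 ± 1.03 (SE). At day 30 the span was wide in both groups, from -6.21 to 2.21 (median -0.51) and from -6.52 to 2.22 (median 0.79), with a difference of -0.68 ± 1.03. At day 90 Adipoq had a median of -2.48 and a lowest value of -5.92 with ASCs, where 1 array lay above all arrays of BAM only, which gave -5.37 to 0.84 (median -0.99), with a difference of -1.45 ± 1.03 and a limma adjusted p of 0.249. The groups overlapped at each of these days.

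Retn differed by -0.92 ± 0.946 at day 7, -0.49 ± 0.946 at day 30 and -2.04 ± 0.946 at day 90 (limma adjusted p = 0.558, 0.782 and 0.0812). Its day 90 values were -5.63 to 0.67 (median -2.62) with ASCs and -4.25 to 1.02 (median -0.97) with BAM only, with 2 of 8 arrays with ASCs below all of BAM only. Cidec differed by -0.46 ± 0.805, -0.91 ± 0.805 and -1.24 ± 0.805 at days 7, 30 and 90. At day 90 its probe was above background on 1 array with ASCs and 2 with BAM only. Cfd differed by -0.63 ± 0.305, -0.51 ± 0.305 and -0.80 ± 0.305, with adjusted p of 0.155, 0.285 and 0.0358. For Adipoq, Retn, Cidec and Cfd the mean was thus below that of BAM only at days 7, 30 and 90 and above it at day 180, although no single day passed the threshold. At day 30 the sign for Adipoq and Retn rested on single arrays, as leaving out 1 array (BAM with ASCs replicate 8) gave differences of 0.04 and 0.08.

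The other genes went different ways. Fabp4 at day 7 was 3.27 to 4.70 (median 4.07) with ASCs against 2.49 to 4.12 (median 3.24) with BAM only, with 4 of 8 arrays above all arrays of BAM only. That difference was 0.75 ± 0.251 (limma adjusted p = 0.0295), and it passed after quantile normalization, at 0.92 with an adjusted p of 0.00975. Fabp4 differed by 0.09 ± 0.251 at day 30 and 0.32 ± 0.251 at day 90. Lpl differed by 0.27 ± 0.305, -0.48 ± 0.305 and -0.32 ± 0.305 at days 7, 30 and 90, and Cebpa by -0.11 ± 0.263, -0.42 ± 0.263 and 0.55 ± 0.263. Lep was dim throughout, on at most 4 of 8 arrays of a group above background, and its day 90 difference of -0.87 ± 0.338 came from a probe not well above background on any of the 16 arrays.

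None of the 9 genes was called by limma at day 7, day 30 or day 90 (0 of 9 each), and none by the ordinary linear model. Among all named genes, 2.63% were called higher and 5.12% lower with ASCs at day 7, 1.37% and 0.592% at day 30, and 3.16% and 7.05% at day 90. At an unadjusted p below 0.05 there were 2 genes at day 7 (Fabp4 and Cfd), 0 at day 30 and 4 at day 90 (Lep, Cfd, Cebpa and Retn), where 9.93%, 16.7% and 14.4% of all named genes were higher and 20.8%, 10.4% and 30.5% lower at that level. At these days 0 of the 9 genes separated the groups without overlap, as 3.89%, 2.32% and 2.58% of all named genes did. The median difference of the 9 genes was -0.36, -0.48 and -0.80 at days 7, 30 and 90, against -0.13, 0.08 and -0.16 over all named genes.

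The turn between day 90 and day 180 was tested directly, as the graft difference at day 180 minus that at day 90. Retn, Adipoq and Cfd were called higher, 3 of 9 genes, where 3.91% of all named genes were called higher and 3.39% lower. The change was 5.05 ± 1.34 (SE) for Retn (limma adjusted p = 0.00415), 5.11 ± 1.45 for Adipoq (0.00796) and 1.54 ± 0.431 for Cfd (0.00719). Relative to the change of 0.38 in the median of all probes, these were 4.68, 4.73 and 1.16. Without BAM with ASCs replicate 3 at day 90, the changes were 4.67 for Retn (0.00954), 4.67 for Adipoq (0.0176) and 1.21 for Cfd (0.0173), so that only Retn passed. The count was also 1 without any one of BAM with ASCs replicates 1 and 2 at day 180, BAM replicates 6 and 7 at day 180, or BAM replicates 2, 3, 4 and 6 at day 90. Taken singly over the 32 arrays left out in turn, Adipoq lost its call 18 times, Cfd 12 times and Retn 0 times. Other markers moved in the same test. The housekeeping genes Actb, Ppia and Rplp0 were called lower (by -0.99 to -0.93), of 10 endothelial genes 2 higher (Cdh5, and Vwf by 0.92) and of 8 urothelial genes 1 lower (Krt20, -2.91), and the median change was 0.62 over 14 macrophage genes and -1.48 over the urothelial genes. Their part in the change of Retn, Adipoq and Cfd was not tested. After normexp correction, which starts from foreground and local background, the 3 changes were 3.26, 3.46 and 1.49 and none passed.

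The same 16 arrays of day 180 served for the other 2 tests of this kind. Against day 7 the change was 4.23 for Adipoq, 3.94 for Retn and 1.36 for Cfd, with limma adjusted p of 0.0356, 0.0334 and 0.0211. Against day 30 it was 4.34, 3.50 and 1.24, with adjusted p of 0.058, 0.105 and 0.07. No gene was called in either (0 of 9 by limma and by the ordinary linear model), where 5.07% and 1.22% of named genes were called higher and 2.07% and 0.649% lower. At an unadjusted p below 0.05 there were 3 genes against day 7 and 4 against day 30, the fourth being Lpl.

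The day 180 and day 90 arrays of each graft type were also compared. From day 90 to day 180, the mean of Adipoq differed by 2.84 ± 1.03 in BAM with ASCs and by -2.27 ± 1.03 in BAM only, with limma adjusted p of 0.0584 and 0.105. Retn differed by 2.06 ± 0.946 and -2.99 ± 0.946 (0.15 and 0.0148), and Cfd by 0.56 ± 0.305 and -0.98 ± 0.305 (0.236 and 0.013). In each graft type 0 of 9 genes were called by limma and by the ordinary linear model, where 1.99% of named genes were called higher and 0.681% lower with ASCs, and 4.78% and 3.05% with BAM only. At an unadjusted p below 0.05 there were 2 genes with ASCs and 3 with BAM only.

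Between days 7 and 30 a single gene was called. In BAM only, Lpl rose from -0.51 to 0.38 (median 0.05) at day 7 to 0.19 to 1.91 (median 1.43) at day 30. Of the 8 arrays at day 30, 7 lay above all arrays of day 7, and the difference was 1.23 ± 0.305 (limma adjusted p = 0.00191). With ASCs the Lpl difference over the same days was 0.48 ± 0.305 (0.225), and the difference between the graft types was not tested. This made 1 of 9 genes higher in BAM only, where 4.93% of named genes were called higher and 5.17% lower. With ASCs 0 of 9 were called by limma and by the ordinary linear model and 0 had an unadjusted p below 0.05, where 4.98% of named genes were called higher and 1.85% lower.

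Within groups the 9 genes varied to very different degrees. The pooled standard deviation of arrays around their group means was 2.09 for Adipoq, 1.93 for Retn and 1.64 for Cidec, against a median of 0.317 over the 11165 named genes above background on at least 32 arrays. These placed 16th, 21st and 33rd from the top. Cfd and Lpl stood at 0.617 each, Lipe at 0.588, Cebpa at 0.532 and Fabp4 at 0.507, all below the 95th percentile of 0.856. The SE of a graft difference was accordingly 1.03 for Adipoq and 0.251 for Fabp4.

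Adipoq, Retn and Cidec varied together from rat to rat. After the group means were removed, the deviations of Retn followed those of Adipoq with a Pearson r of 0.96 over 64 arrays (Spearman rho 0.95), and those of Cidec with r = 0.82 (rho 0.81). Retn had r = 0.96 within the 32 arrays of days 7 and 30 and within the 32 arrays of days 90 and 180, and without the 2 arrays of the most extreme Adipoq it had 0.95. Cidec had 0.85 and 0.78 within these sets of 32 arrays. Over the arrays of day 180 alone, r was 0.92 for Retn and 0.56 for Cidec. The Cidec probe was well above background on only 32 of 64 arrays. Among 11164 named genes compared with Adipoq the median r was 0.01 and the 95th percentile 0.27, and 24 genes were over 0.5 and 0 under -0.5. The arrays are shared by all genes, so these are descriptions and not tests.

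**Figure D3:**
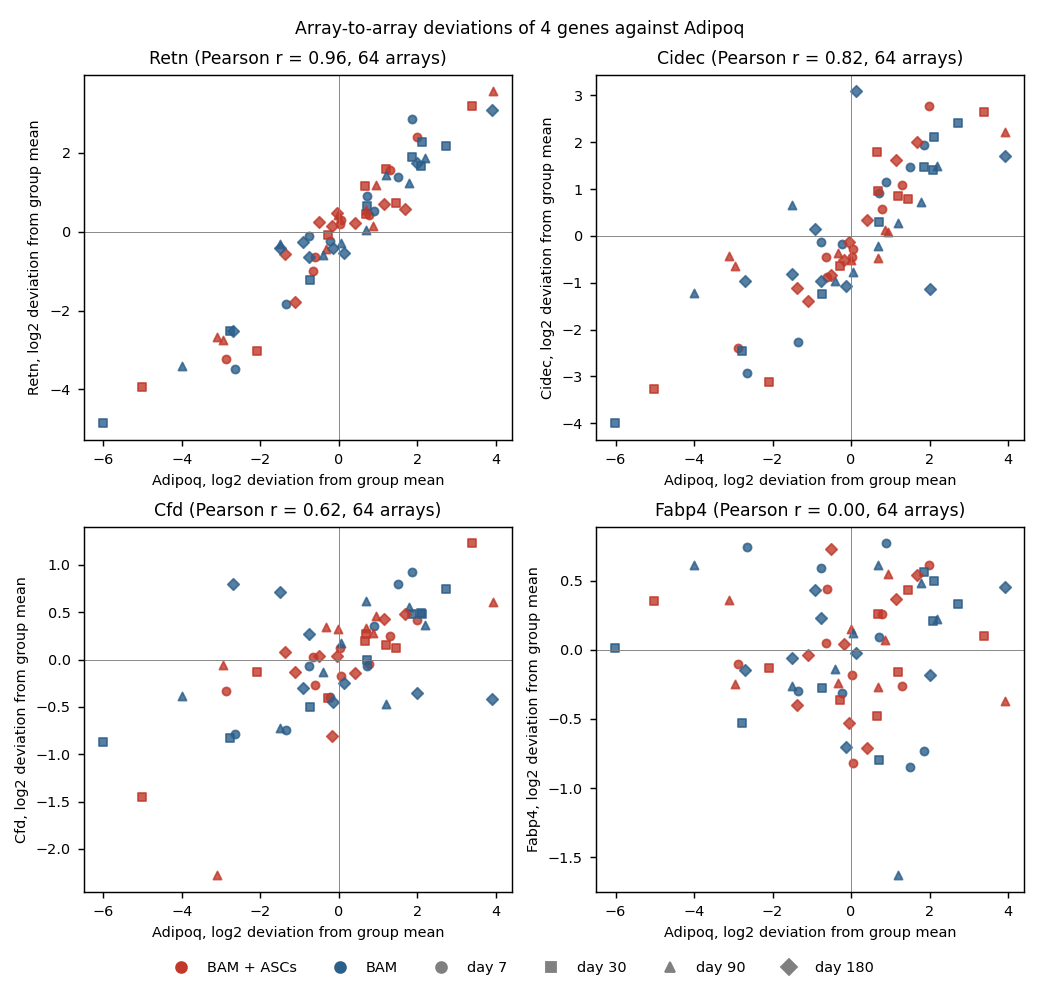
Deviation of each of 64 arrays from its group mean on the log2 scale, for Adipoq (x axes) and for Retn, Cidec, Cfd and Fabp4 (y axes). Red is BAM seeded with ASCs, blue BAM only, and the marker shape gives the day. Pearson r was 0.96 for Retn, 0.82 for Cidec, 0.62 for Cfd and 0.00 for Fabp4.

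The 10 genes outside the list whose deviations were most like those of Adipoq were Gpd1 (r = 0.91), Rbp4 (0.90), Agt (0.87), Thrsp (0.86), Nnat (0.82), Aqp7 (0.81), Acvr1c (0.80), Acsl1 (0.74), Mrap (0.71) and S100b (0.67). Of these, 6 stood on the wider lists of adipocyte genes, which held 71 genes with a probe. Most genes of those lists did not follow Adipoq. The median r with Adipoq was 0.15 for lipid droplet genes, 0.13 for lipid uptake and synthesis and 0.10 for adipogenic transcription factors. It was 0.06 for adipokines and insulin response and -0.07 for brown fat, against 0.13 for macrophage markers. Gpd1 makes glycerol 3-phosphate for triglyceride, Rbp4 carries retinol in the blood, Agt is angiotensinogen, Thrsp takes part in fatty acid synthesis, Aqp7 is a glycerol channel and Acsl1 activates long-chain fatty acids. Nnat encodes a small membrane protein first known from the developing brain, Acvr1c an activin-type receptor, Mrap a partner of melanocortin receptors, and S100b a calcium-binding protein of glial cells that adipocytes also contain. With only the 32 arrays of days 90 and 180 the r of these genes ranged from 0.61 for S100b to 0.88 for Gpd1, Rbp4 and Agt.

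At day 180, Agt separated the graft types without overlap, as 0.942% of all named genes did, at -2.28 to -0.33 with ASCs and -3.94 to -2.72 with BAM only. Its difference was 1.64 ± 0.557 (limma adjusted p = 0.0787). Nnat differed by 1.82 ± 0.503 (0.017), Thrsp by 1.64 ± 0.664 (0.186), Rbp4 by 1.51 ± 0.609 (0.18), Gpd1 by 1.45 ± 0.686 (0.307) and Acsl1 by 0.77 ± 0.297 (0.154). With BAM only, Agt and Nnat were above background on 6 of 8 arrays, Thrsp on 5 and Gpd1 on 3. Aqp7 was above background on 4 arrays with ASCs and 0 with BAM only, so no fold is given for it, and its difference did not pass (limma adjusted p = 0.361). S100b differed by -0.13 ± 0.42. None of the 10 was called at day 180, and they were chosen for their likeness to Adipoq on arrays that include these 16. In the graft difference of day 180 against day 90, Nnat (2.55, 0.00696) and Acsl1 (1.45, 0.00938) passed, where 3.91% of all named genes were called higher and 3.39% lower. Adipoq was itself called in this test, and the arrays used to choose the 10 genes include all arrays of the test.

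**Figure D4:**
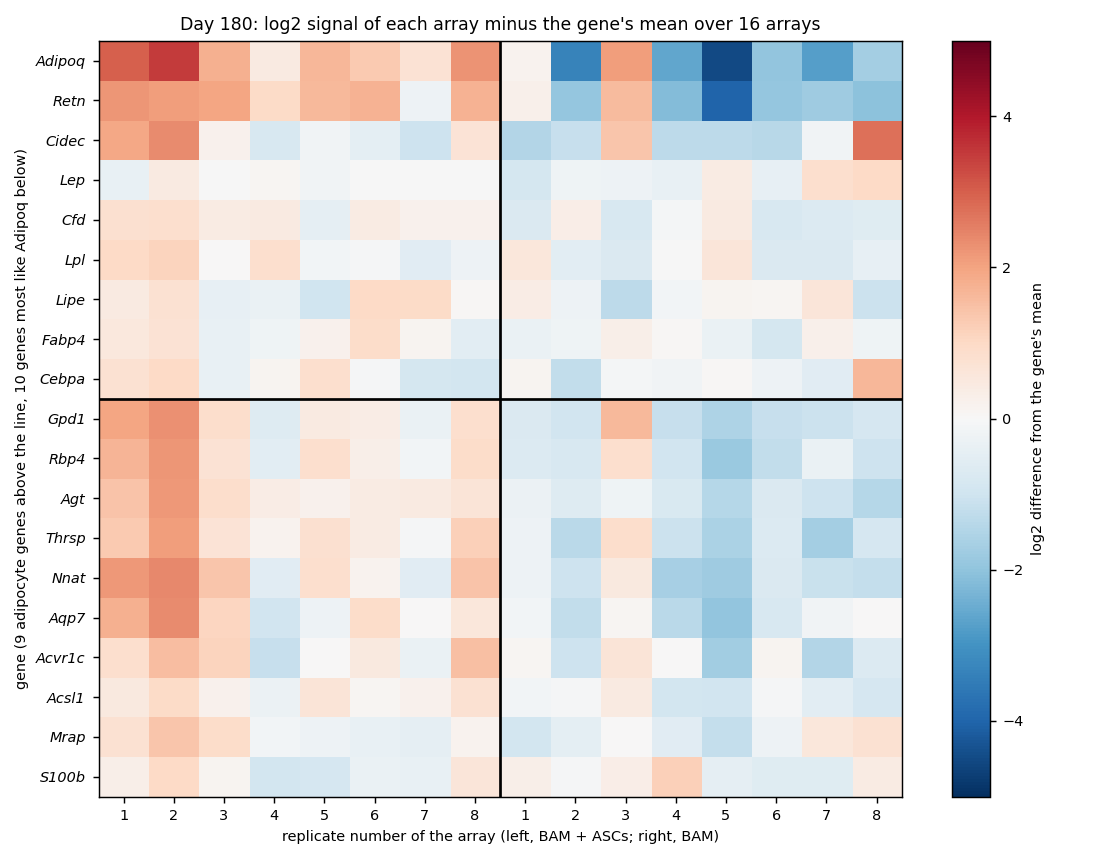
Log2 signal of 19 genes (rows) on the 16 arrays of day 180 (columns, by replicate number, BAM seeded with ASCs left and BAM only right), each minus the gene's mean over the 16 arrays. Adipoq, Retn, Gpd1, Rbp4, Nnat and Aqp7 are highest on replicates 1 and 2 with ASCs and lowest on replicate 5 of BAM only, S100b is highest on BAM replicate 4 (1.19), and for Adipoq and Retn BAM replicate 3 lies within the range of the arrays with ASCs.

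The other adipocyte genes kept other company. Cfd followed Adipoq with r = 0.62 over all arrays but with r = -0.38 over the 16 arrays of day 180, and its nearest genes were C1qc (0.77), Lyl1 (0.76), Nrros (0.76) and C1qa (0.75), of which C1qa and C1qc encode complement C1q, made by macrophages. Lpl had r = 0.31 with Adipoq, and its nearest gene was Tec (0.89), a kinase of blood cells. The median r with the 13 macrophage markers above background on at least 32 arrays was 0.59 for Cfd and 0.56 for Lpl, against 0.13 for Adipoq and 0.15 for Retn. Lipe had r = 0.23 with Adipoq, a median r of 0.45 with 10 endothelial markers, and Bcl6b (0.68) and Erg (0.66), genes of endothelial nuclei, among its nearest. Fabp4 had r = 0.00 with Adipoq and a median r of 0.37 with 8 urothelial and 0.40 with 4 mesothelial markers, and Cebpa had r = 0.27 with Adipoq.

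**Figure D5:**
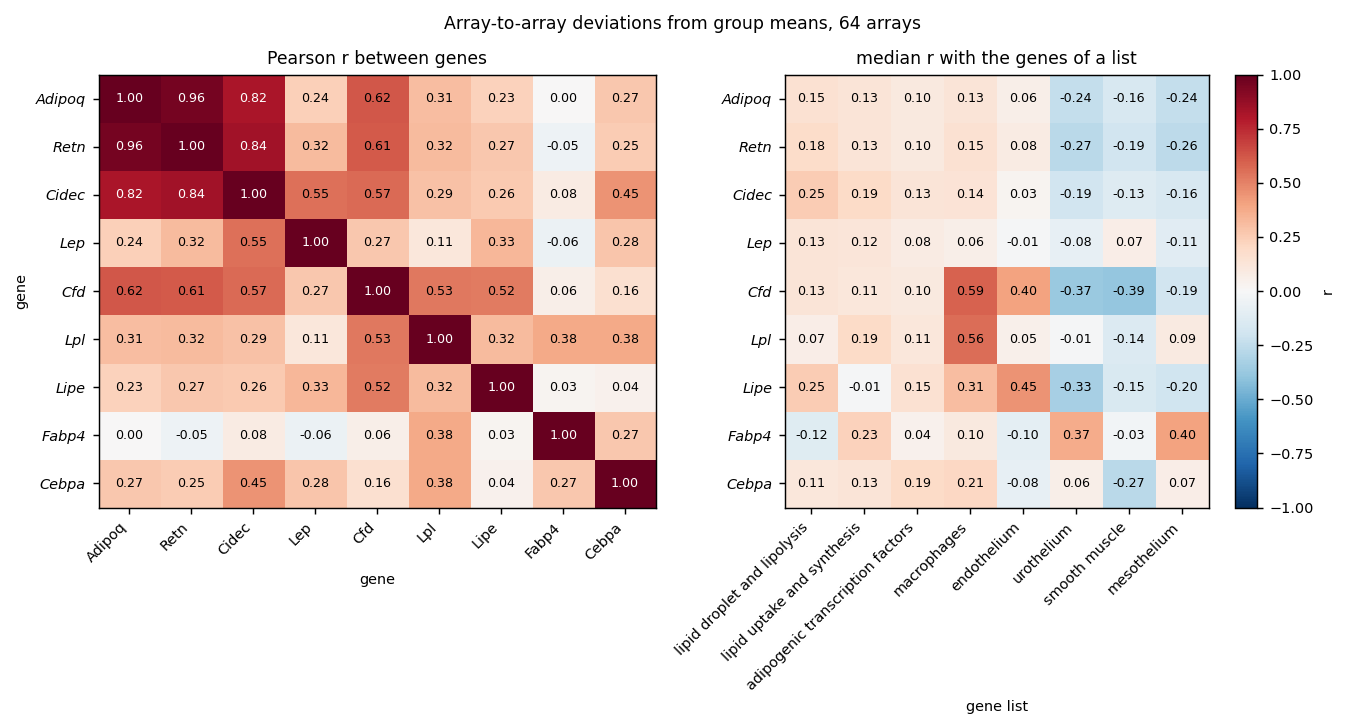
Left, Pearson r between the array deviations of 9 adipocyte genes, 64 arrays. Right, the median r of each gene with the genes of 8 marker lists. Adipoq, Retn and Cidec have r of 0.82 to 0.96 with each other, Cfd and Lpl have median r of 0.59 and 0.56 with macrophage genes, and Lipe 0.45 with endothelial genes.

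Of 78 further genes of adipocyte biology, 71 had a probe. At day 7, 3 were called higher with ASCs, the lipogenic elongase Elovl6 (1.26 ± 0.263), Pparg, the main regulator of fat cell formation (0.93 ± 0.264), and the transcription factor Klf5 (2.01 ± 0.425). The array deviations of these 3 had r of -0.31, -0.17 and -0.24 with Adipoq, and 5 of 8 urothelial genes were called higher in the same comparison. The part of the urothelium in their rise was not tested. Lower were the transcription factors Ebf1 (-1.57 ± 0.323) and Ebf2 (-1.13 ± 0.218) and the peptide Apln (-1.27 ± 0.356). At day 30 only Fasn, fatty acid synthase, was called, at 0.70 ± 0.174 (limma adjusted p = 0.00812), and leaving out 1 of BAM with ASCs replicates 2, 6, 7 and 8 or of BAM replicates 2, 3, 4, 5 and 6 brought the count to 0. At day 90 Fabp5, a fatty acid binding protein of epithelia, was called higher at 1.28 ± 0.178, and 4 genes lower, Ebf2, Trarg1, Ucp1 and Tmem26, which were above background on at most 2 arrays of a group. Of all named genes, 2.63% were called higher and 5.12% lower at day 7. The shares higher and lower were 1.37% and 0.592% at day 30, and 3.16% and 7.05% at day 90.

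At day 180 none of the 71 was called by limma, and 0 by the ordinary linear model, while 11 higher and 3 lower had an unadjusted p below 0.05, against 7.34% and 5.24% of all named genes. The median difference of the 71 genes was -0.09, -0.05, -0.15 and 0.08 at days 7, 30, 90 and 180. The lipase Pnpla2 differed by 0.11 ± 0.151 at day 180, the fatty acid transporter Cd36 by 0.40 ± 0.297, the glucose transporter Slc2a4 by -0.36 ± 0.273, Pparg by -0.29 ± 0.264, Fasn by -0.22 ± 0.174, the desaturase Scd by 0.93 ± 0.537 and Pck1, an enzyme of glycerol formation, by 0.94 ± 0.734. Ucp1, the heat-producing protein of brown fat, was not well above background on any array of day 180, and Plin4 had no probe. The markers of ASC-like stroma did not pass at day 180 either, with Pdgfra at 0.01 ± 0.133, Thy1 at 0.22 ± 0.174, Cd44 at 0.03 ± 0.147 and Itgb1 at -0.19 ± 0.163, and Dlk1, a marker of preadipocytes, was above background on 0 of 16 arrays.

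Markers of other cells also moved between the graft types. At day 7, 5 of 8 urothelial genes were called higher with ASCs, among them Upk2 (2.87 ± 0.579) and Upk1a (2.36 ± 0.448), 3 of 10 neutrophil genes lower, among them Lcn2 (-4.45 ± 0.767), and 2 of 10 endothelial genes lower, as Vwf fell by 1.00 ± 0.168 and Kdr by 0.68 ± 0.171. Of all named genes, 2.63% were called higher and 5.12% lower at that day. At day 30 the 14 macrophage genes had a median difference of -0.75, with 0 called. At day 90, 3 of 9 smooth muscle genes, Myh11, Tagln and Actg2, were called higher by 1.00 to 1.09. Of 10 housekeeping genes, those called higher included Actb, Ppia and Rplp0, by 1.02 to 1.15. The macrophage gene Lyz2 was called higher by 0.81, but only 3 of the 14 macrophage genes had a higher mean, and their median difference was -0.30. Of all named genes, 3.16% were called higher and 7.05% lower at day 90. At day 180 no gene of these lists was called, and the summed signal of 10 endothelial genes was 15.3 to 24.9 times the 75th percentile with ASCs against 11.9 to 16.1 with BAM only, that of 14 macrophage genes 94.8 to 211 against 54.9 to 150, and that of 8 urothelial genes 132 to 235 against 158 to 299. The highest day 180 endothelial and the second highest macrophage level were on replicate 2 with ASCs, the array with the highest Adipoq, and BAM replicate 3, the highest BAM array for Adipoq, had the lowest macrophage level. Their part in the differences of the 9 adipocyte genes was not tested.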

How the data were processed

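Total RNA of 64 reconstructed bladder walls was hybridised to 1-colour Agilent arrays, 1 array per rat and 8 per group. The deposited scanner files give, per spot, the processed intensity (background-subtracted by the authors with Agilent Feature Extraction 12.0.1.1), foreground and background signals and flags, and the deposited series matrix held the same intensity (median within 0.01 in log2) in 61 of 64 columns, 1 of them with 26650 empty spots, 3 columns of BAM with ASCs at day 7 being shifted by -3.30 to -3.29 in median log2. After 4259 of 62976 spots were left out as controls, log2 intensities were centred on each array's 75th percentile, spots of a probe were averaged to 30367 probes, and 18758 probes were named through their accessions. The brightest probe stood for a gene. All 8 groups were fitted in limma 3.58.1 (R 4.3.3, with the data.table package, version 1.17.8), with Benjamini-Hochberg adjustment over all probes, and the fit was tested on simulated data. The labels number the rats within groups and do not say whether they shared litters or batches. Promoters were searched and plots drawn with Python 3.11.15, pandas 2.3.3 and matplotlib 3.10.9.

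The members and lists were chosen with earlier results of these data known. Named were all members, up to 4 called genes per list and day with the largest change, 14 genes fixed by name and the 10 genes outside the list most like Adipoq. The ranks of within-group spread, the nearest genes of the other members, the correlations within scan sessions and the list levels per array were chosen after values were seen. Alternatives were normexp correction (offset 50), quantile normalization, centring on the probes detected on all arrays, the matrix values, dim probes left out, the dimmest probe, only the compared groups, the replicate number as a block, an ordinary linear model and each array left out in turn. No counts underlie arrays, and the number of arrays limits the precision. One gene of the housekeeping list is not reported here.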

Additional observations from a re-analysis of the deposited data

Results flagged for a closer look

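In 8 of 72 sets of 1 gene and 1 group, a single array lay far from the other 7 by Dixon's test, which chance alone does in about 1 in 20 groups. For Lep these were BAM with ASCs replicate 6 at day 7 (-6.04), BAM replicate 7 at day 7 (-5.39) and BAM replicate 8 at day 90 (-3.33), on a probe near background. Cidec was -3.15 on BAM with ASCs replicate 8 at day 90, and Cebpa was -2.31 on BAM replicate 8 at day 180, the array that also held the highest Cidec of its day (-1.70). Retn was -4.25 on BAM replicate 7 at day 90, where the next array of the group had -1.45. Cfd was 0.71 on BAM with ASCs replicate 3 at day 90, the array with the lowest summed macrophage signal (25.5 times the 75th percentile) of that group. Fabp4 was 0.76 on BAM replicate 5 at day 90, whose summed urothelial signal of 33.4 and macrophage signal of 46.7 were both the lowest of its group.

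The graft difference changed between day 90 and day 180 by 5.11 for Adipoq, 5.05 for Retn and 1.54 for Cfd on the log2 scale, as tested with limma (adjusted p = 0.00796, 0.00415 and 0.00719).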

How the results depend on the processing

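Of the 9 genes, quantile normalization called 1 at day 7 (Fabp4). At day 180, fitting only the compared groups called 2 (Adipoq and Retn), leaving out dim probes called 1 (Adipoq), and leaving out each array in turn called 0 to 1, the 1 being without BAM replicate 3. Adipoq cleared background on 8 arrays with ASCs at day 180 but on 3 with BAM only. It thus stayed in the fit without dim probes through its brighter group. That call is therefore no independent check of the Adipoq difference. The graft difference at day 180 against day 7 had 2 calls when fitted on its own groups. Against day 90 it had 0 after normexp correction, 1 after quantile normalization and 1 to 3 without each array. Over the 9 alternatives and the 32 arrays left out, Adipoq lost this call 20 times, Cfd 17 times and Retn 1 time. Leaving out arrays made up 18, 12 and 0 of these, so Cfd also lost its call in alternatives beyond those named here. From day 90 to day 180 in BAM only, quantile normalization and leaving out dim probes called 1 each, and leaving out arrays 0 to 1, the 1 being without BAM replicate 7 or 8 of day 90 or replicate 2, 3 or 5 of day 180. Of the wider lists, day 7 had 4 to 11 calls without each array (10 without BAM with ASCs replicate 3 and 11 without BAM replicate 4). Day 30 had 2 calls with normexp, with dim probes left out and with the dimmest probe, 3 with quantile normalization, 0 with only the compared groups and 0 to 2 without each array. Day 90 had 1 call with normexp, with only the compared groups and with dim probes left out, 3 with quantile normalization and with the series matrix, and 2 to 5 without each array (2 without BAM replicate 8). Day 180 had 1 with only the compared groups. Lep turned sign at day 7 (0.12 with quantile normalization, 0.51 with the series matrix), at day 90 (0.05, quantile) and at day 180 (0.18, quantile), and Lipe at day 7 with its dimmer probe (0.10). Without each array, values that turned sign ran from -0.23 to 0.01 for Cebpa at day 7, -1.54 to 0.04 for Adipoq, -1.18 to 0.08 for Retn and -0.03 to 0.17 for Fabp4 at day 30, and -0.15 to 0.12 for Lep and -0.03 to 0.38 for Cebpa at day 180. The causes were not tested. Arrays of the same number did not pair: over 8 pairs a day the median r of their deviations was 0.05, 0.08, -0.02 and 0.01, and 3, 3, 2 and 1 pairs exceeded 0.1. With the replicate number as a block, the wider lists had 0 calls at day 30 in place of 1, and no count over the 9 genes changed. Genes near background at days 90 and 180, Lep and Cidec above all, had differences bounded by background.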
